A study of Mus musculus with 8 samples.

Results

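Skeletal muscle contracts when calcium leaves the sarcoplasmic reticulum and relaxes when calcium is pumped back, and 10 genes of that cycle are described here in cultured mouse myotubes. They are the calcium pumps Atp2a1 and Atp2a2 with their inhibitors Pln and Sln, the calcium-storing calsequestrins Casq1 and Casq2, the release channel Ryr1 with its anchor Trdn, and the voltage-sensor subunits Cacna1s and Cacng1. A gene's members on the array are the probe sets annotated to its symbol alone, of which there were 24 for these genes, and each gene is led by the one with the highest mean log2 intensity over the 8 arrays. All 10 genes had such a probe set, among 18193 genes in all. No gene or probe set was dropped for low values.

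In a resting muscle fibre calsequestrin holds calcium inside the reticulum. Depolarisation moves the voltage sensor in the surface membrane, whose pore-forming subunit is Cacna1s. The sensor opens the ryanodine receptor Ryr1 across a narrow gap at the triad, where triadin (Trdn) ties the receptor to calsequestrin. The SERCA pumps then return the calcium: SERCA1, from Atp2a1, is the form of fast fibres, and SERCA2, from Atp2a2, is the form of slow fibres and heart. Phospholamban (Pln), best known from slow muscle and heart, and sarcolipin (Sln) are small membrane proteins that restrain SERCA.

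RNA was measured on Affymetrix arrays in C2C12 cells, an established clonal mouse myoblast line that fuses into myotubes in low serum. After 3 days in 2% serum the cells received an adenovirus, and RNA was taken 3 days after that. The groups were GFP-tagged PGC-1α virus with 100 µM deferoxamine (PGC-1α plus DFO), GFP virus with 100 µM deferoxamine (GFP plus DFO), GFP-tagged PGC-1α virus alone (PGC-1α) and GFP virus alone (GFP), with 2 arrays each. The design text calls them biological duplicates. PGC-1α is a transcriptional coactivator of mitochondrial genes, and deferoxamine (DFO) binds ferric iron. Every group, GFP included, carried an adenovirus, so no uninfected cells were compared, and the construct was added to cells that keep their own copy of the gene.

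The deposited values were intensities on a linear scale with array medians of 59.4 to 62.8 units. Paired arrays within each group had Pearson's r of 0.942 to 0.962 on the log2 scale, taken across probe sets, so the points are not independent. Ppargc1a, the gene of PGC-1α, read 7930 and 7710 units in PGC-1α plus DFO against 26.6 and 88.1 in GFP plus DFO, and 7211 and 7036 in PGC-1α against 28.6 and 37.3 in GFP, as labelled. Changes below are log2 differences ± SE from limma, with p-values adjusted by Benjamini and Hochberg's method over all 18193 genes and called at 0.05. In these bulk samples fewer myotubes and less RNA per myotube cannot be told apart.

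Promoter windows of 250 bases before to 50 bases after the start site, from RefSeq on GRCm38.p6, were at hand for 6 of the 10 genes: Atp2a1, Casq1, Casq2, Cacna1s, Pln and Ryr1. The 3 printed first belong to genes that were lower with DFO, the Casq1 and Pln windows to genes whose leading probe sets did not pass the test with DFO in either virus group. Capitals mark E-boxes (CANNTG, the letters that myogenic bHLH factors such as myogenin read), a MEF2 site, an M-CAT element (CATTCC, which TEAD factors read) and the core ACGTG of hypoxia response elements. The other motifs searched were the ERR half-site AAGGTCA and the CArG box, and all were sought on both strands. An E-box spelled CACGTG would also count as a hypoxia core, and none of these windows holds one. The windows lie at chr7:126463024-126463323 on the minus strand for Atp2a1, chr3:102086165-102086464 on the plus strand for Casq2, chr1:136052561-136052860 on the plus strand for Cacna1s, chr1:172219846-172220145 on the minus strand for Casq1 and chr10:53337436-53337735 on the plus strand for Pln.
Atp2a1: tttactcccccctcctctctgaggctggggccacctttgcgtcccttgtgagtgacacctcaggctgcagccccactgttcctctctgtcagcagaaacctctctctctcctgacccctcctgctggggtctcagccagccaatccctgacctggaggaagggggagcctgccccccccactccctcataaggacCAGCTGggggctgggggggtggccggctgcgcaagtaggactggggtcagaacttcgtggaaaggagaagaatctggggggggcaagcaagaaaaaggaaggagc
Casq2: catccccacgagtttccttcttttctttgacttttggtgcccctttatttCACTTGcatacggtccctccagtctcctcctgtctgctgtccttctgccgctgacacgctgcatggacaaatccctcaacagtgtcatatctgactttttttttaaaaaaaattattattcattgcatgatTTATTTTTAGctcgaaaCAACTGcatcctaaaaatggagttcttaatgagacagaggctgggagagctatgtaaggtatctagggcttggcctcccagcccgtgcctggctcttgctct
Cacna1s: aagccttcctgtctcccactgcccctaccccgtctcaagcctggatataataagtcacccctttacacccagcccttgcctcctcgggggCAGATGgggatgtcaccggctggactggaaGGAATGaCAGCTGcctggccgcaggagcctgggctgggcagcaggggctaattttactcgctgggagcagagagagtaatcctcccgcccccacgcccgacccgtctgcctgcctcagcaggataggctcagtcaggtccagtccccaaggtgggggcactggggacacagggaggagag
Casq1: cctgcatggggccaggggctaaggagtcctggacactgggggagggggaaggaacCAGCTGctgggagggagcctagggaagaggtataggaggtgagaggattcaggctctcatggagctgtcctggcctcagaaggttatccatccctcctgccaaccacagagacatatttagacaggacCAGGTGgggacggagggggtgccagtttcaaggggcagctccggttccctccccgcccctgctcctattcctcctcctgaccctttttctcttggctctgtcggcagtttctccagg
Pln: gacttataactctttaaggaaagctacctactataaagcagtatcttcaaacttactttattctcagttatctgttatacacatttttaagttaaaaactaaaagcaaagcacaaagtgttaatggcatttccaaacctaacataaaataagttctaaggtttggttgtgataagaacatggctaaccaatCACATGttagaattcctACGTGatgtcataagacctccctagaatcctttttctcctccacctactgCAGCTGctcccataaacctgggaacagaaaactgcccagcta

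The Atp2a1 window holds 1 E-box, at position -55 from the start site. That of Casq2 holds 2, at -200 and -52, and the MEF2 site at -69. That of Cacna1s holds 2, at -160 and -123, and the M-CAT element, on the minus strand, at -130. Casq1 also has 2 E-boxes, at -195 and -67, and Pln has 2, at -59 and 9, with the hypoxia core at -42. The Ryr1 window holds none of the letters searched. E-boxes occur in 72.3% of 32851 windows of the same length, M-CAT elements in 14.7%, ACGTG in 19.6%, AAGGTCA in 4.72%, MEF2 sites in 3.19% and CArG boxes in 1.63%. By leading probe sets, windows of genes that fell with DFO and of those that did not pass (Casq1 and Pln) both hold E-boxes. Ryr1, called lower with DFO in PGC-1α cells, has none. E-boxes therefore do not separate these genes, and they are common in all windows. The MEF2 site, the M-CAT element and the hypoxia core were each found in 1 window, so they could not be compared. The dimmer Pln probe sets did fall with DFO in PGC-1α cells, as given below.

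**Figure D1:**
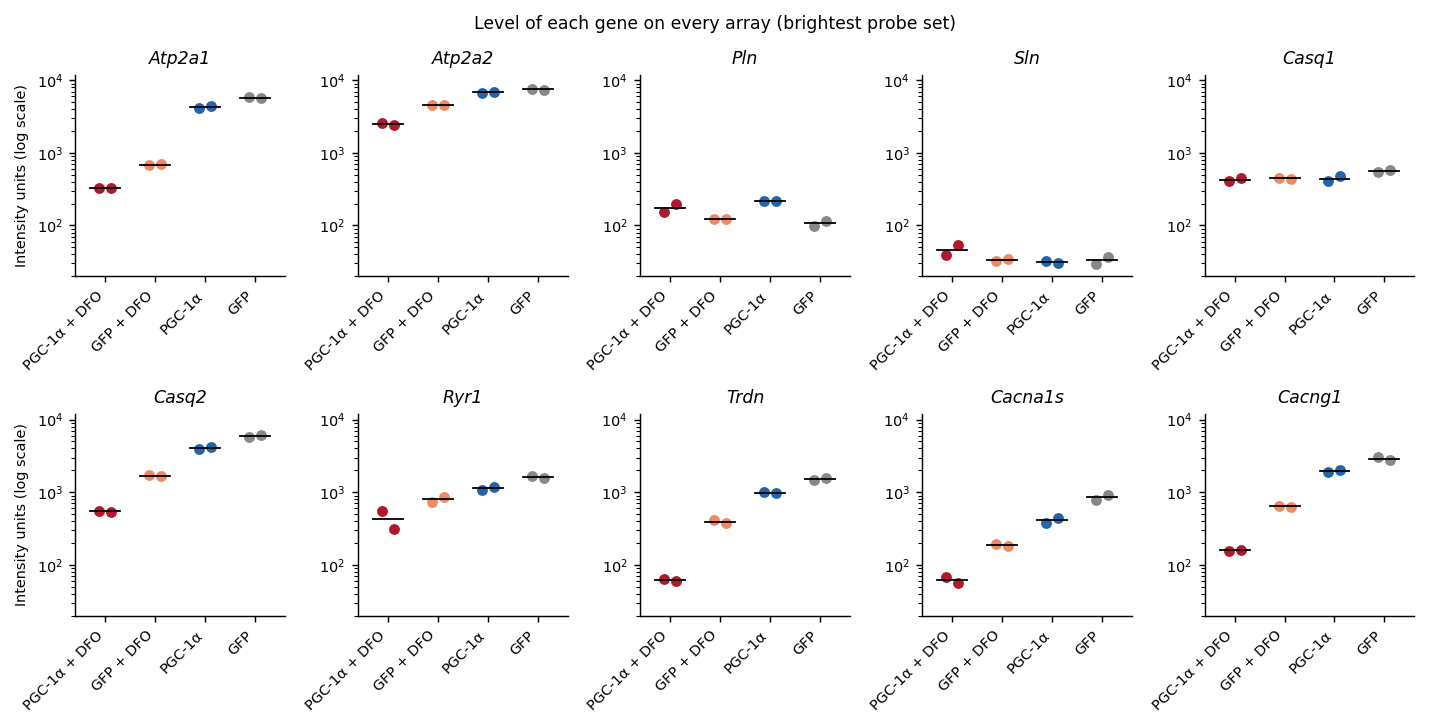
Intensity of the leading probe set of each of the 10 genes (log axis, intensity units as deposited) on every array. Points mark arrays and bars the arithmetic mean of 2 arrays. In 7 panels the groups stand in the same order without overlap, lowest in PGC-1α plus DFO and highest in GFP. Pln, Sln and Casq1 do not follow it. The share of all genes with this order was not counted.

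Of the 10 genes, 7 shared an order of levels. The share of all genes with that order was not counted, so the 7 are a description only. Atp2a1, Atp2a2, Casq2, Ryr1, Trdn, Cacna1s and Cacng1 were each lowest in PGC-1α plus DFO, then GFP plus DFO, then PGC-1α, and highest in GFP, and no neighbouring groups overlapped. The distance between the lowest and highest group mean was 4.62 log2 units for Trdn, 4.19 for Cacng1, 4.14 for Atp2a1, 3.76 for Cacna1s, 3.45 for Casq2, 1.99 for Ryr1 and 1.60 for Atp2a2. It was 1.01 for Pln, 0.55 for Sln and 0.39 for Casq1.

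Atp2a1, the fast-fibre calcium pump, read 324 and 331 units in PGC-1α plus DFO, 681 and 695 in GFP plus DFO, 4187 and 4413 in PGC-1α and 5881 and 5676 in GFP. Every DFO array was far below every array without DFO. With DFO it fell by 3.71 ± 0.08 in PGC-1α cells, which is 13.1-fold (adjusted p = 6.42e-05), and by 3.07 ± 0.08 in GFP cells, which is 8.40-fold (adjusted p = 0.000139). PGC-1α lowered it relative to GFP by a smaller amount, -1.07 ± 0.08 with DFO (adjusted p = 0.00171) and -0.43 ± 0.08 without (adjusted p = 0.0344).

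Atp2a2, the slow-fibre and heart pump, fell less. Its leading probe set (1416551_at) read 2570 and 2429 units in PGC-1α plus DFO, 4540 and 4495 in GFP plus DFO, 6762 and 6974 in PGC-1α and 7695 and 7455 in GFP. The fall with DFO was 1.46 ± 0.08 in PGC-1α cells (2.75-fold, adjusted p = 0.000350) and 0.75 ± 0.08 in GFP cells (1.68-fold, adjusted p = 0.00280). PGC-1α against GFP gave -0.85 ± 0.08 with DFO (adjusted p = 0.00311) and -0.14 ± 0.08 without, which did not pass (adjusted p = 0.319, 95% interval -0.34 to 0.06) except with trend and robust options (adjusted p = 0.0494).

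The probe sets of Atp2a2 disagreed. Another bright one, 1452363_a_at, followed the first, with 1929 and 1952 units in PGC-1α plus DFO, 3220 and 3305 in GFP plus DFO, 5126 and 5396 in PGC-1α and 5440 and 5885 in GFP. By contrast, 1427250_at read 3784 and 3513 units in PGC-1α plus DFO, 2627 and 2704 in GFP plus DFO, 3398 and 3535 in PGC-1α and 2942 and 2947 in GFP, so that its highest arrays were those with the construct. In a fit of all 45037 probe sets, DFO in PGC-1α cells changed 1452363_a_at by -1.44 ± 0.10 (adjusted p = 0.00171) and 1427250_at by 0.07 ± 0.10 (adjusted p = 0.701). The set 1427251_at lay between 404 and 619 units on all arrays, and the remaining 2 lay under their array's median throughout. The SERCA2 gene makes several transcripts; which of them each probe set reads was not analysed here. With the mean of the 6 probe sets in place of the brightest, the Atp2a2 changes with DFO were -0.07 in PGC-1α cells (adjusted p = 0.920) and -0.52 in GFP cells (adjusted p = 0.418), and that under the construct with DFO was -0.18 (adjusted p = 0.816), so all 3 calls were lost. That mean gives equal weight to the 2 dim sets. With DFO in PGC-1α cells these changed by 1.22 ± 1.33 (1437797_at) and 1.09 ± 1.01 (1443551_at). Their part in the lost calls was not tested.

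**Figure D2:**
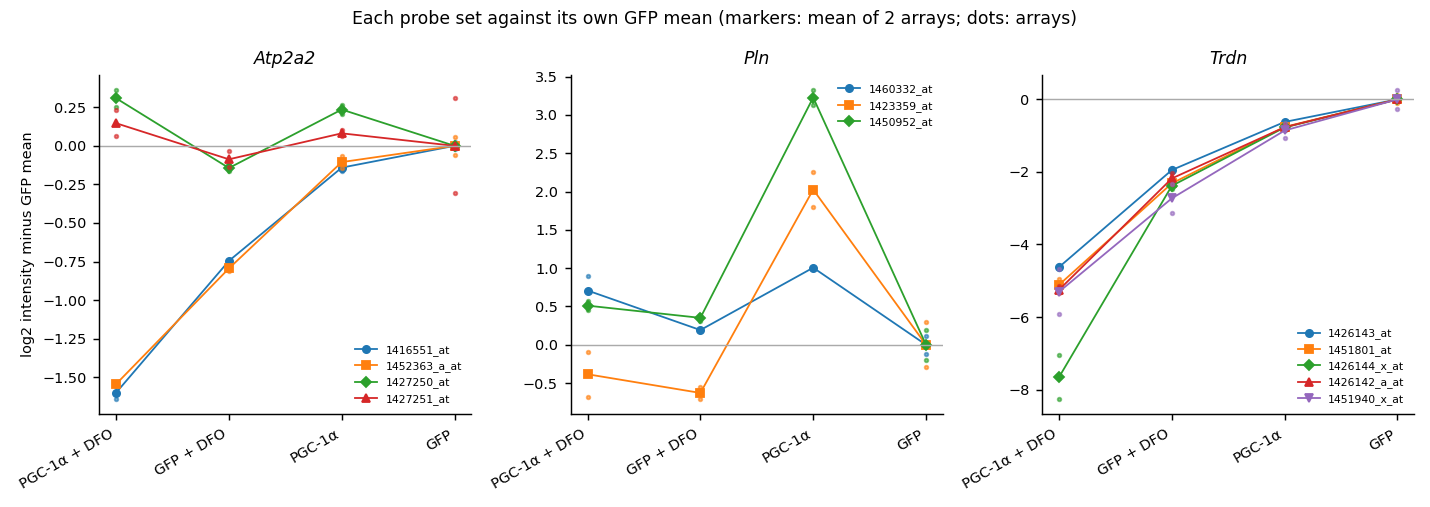
Log2 intensity minus the mean of that probe set in GFP, for the probe sets of Atp2a2, Pln and Trdn, with markers for the mean of 2 arrays and dots for arrays; probe sets under their array's median on all 8 arrays are not drawn. Atp2a2 splits into 2 falling and 2 level probe sets, the Pln sets differ in how far they stand above GFP in PGC-1α cells, and the 5 Trdn sets fall together.

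Pln, the SERCA inhibitor phospholamban, was the member that rose with the construct. Its leading probe set (1460332_at) read 153 and 199 units in PGC-1α plus DFO, 123 and 121 in GFP plus DFO, 214 and 215 in PGC-1α and 98.3 and 116 in GFP. Both PGC-1α arrays without DFO exceeded all the others. Without DFO the change was 1.01 ± 0.15, a 2.01-fold rise (adjusted p = 0.0208). With DFO it was 0.52 ± 0.15 and did not pass (adjusted p = 0.0786, 95% interval 0.13 to 0.91). It did pass without the first PGC-1α plus DFO array (0.71, adjusted p = 0.0330), with genes above the median level (adjusted p = 0.0127), with eBayes trend and robust options (adjusted p = 0.0350) and on the scale of the spike-in controls described further on (1.14, adjusted p = 0.0261).

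The other Pln probe sets showed a larger contrast from a lower level. For 1450952_at the arrays read 33.7 and 30.9 units in PGC-1α plus DFO, 29.7 and 28.1 in GFP plus DFO, 227 and 198 in PGC-1α and 25.9 and 19.8 in GFP. For 1423359_at they read 37.1 and 24.7 units in PGC-1α plus DFO, 27.0 and 24.2 in GFP plus DFO, 189 and 137 in PGC-1α and 48.5 and 32.2 in GFP. Both exceeded their array's median only on the PGC-1α arrays without DFO, so the sizes below are set against dim values. In the fit of every probe set, PGC-1α against GFP without DFO gave 3.23 ± 0.17 for 1450952_at (adjusted p = 0.00564), 2.02 ± 0.31 for 1423359_at (adjusted p = 0.0423) and 1.01 ± 0.17 for the leading set (adjusted p = 0.0499). DFO in PGC-1α cells lowered the dimmer sets by 2.71 ± 0.17 (adjusted p = 0.00119) and 2.41 ± 0.31 (adjusted p = 0.00855), while the leading set changed by -0.30 ± 0.17 and did not pass (adjusted p = 0.311). With the mean of the 3 probe sets, Pln changed by 2.09 for the construct without DFO, still called, and by -1.81 with DFO in PGC-1α cells, where it then passed (adjusted p = 0.00130).

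Sln, the inhibitor sarcolipin, stayed under the array median on all 8 arrays with both of its probe sets. The leading one read 39.2 and 53.1 units in PGC-1α plus DFO, 32.6 and 34.6 in GFP plus DFO, 32.0 and 30.4 in PGC-1α and 29.7 and 36.6 in GFP. It passed in none of the 4 comparisons of the construct or DFO, with adjusted p from 0.0862 to 0.938. The largest change was 0.55 ± 0.18 with DFO in PGC-1α cells (95% interval 0.09 to 1.01), which passed only without the first PGC-1α plus DFO array (0.77, adjusted p = 0.0378) and after spike-in scaling (0.99, adjusted p = 0.0419). After that scaling the construct with DFO passed too (1.06, adjusted p = 0.0372).

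The calsequestrins parted. Casq2, the calsequestrin of heart and slow or immature muscle, read 558 and 527 units in PGC-1α plus DFO, 1713 and 1667 in GFP plus DFO, 3928 and 4190 in PGC-1α and 5789 and 6063 in GFP. Casq1, the main calsequestrin of fast fibres, read 408 and 445 units in PGC-1α plus DFO, 452 and 436 in GFP plus DFO, 407 and 479 in PGC-1α and 547 and 575 in GFP. The Casq1 arrays of the first 3 groups overlapped, and only those of GFP stood above them. Casq2 fell with DFO by 2.90 ± 0.09 in PGC-1α cells (7.48-fold, adjusted p = 8.23e-05) and by 1.81 ± 0.09 in GFP cells (3.51-fold, adjusted p = 0.000316). Casq1 changed by -0.05 ± 0.11 in PGC-1α cells (adjusted p = 0.797, 95% interval -0.34 to 0.24) and by -0.34 ± 0.11 in GFP cells (adjusted p = 0.0946, 95% interval -0.62 to -0.05).

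With the construct Casq2 fell by 1.64 ± 0.09 with DFO (adjusted p = 0.000903) and by 0.55 ± 0.09 without (adjusted p = 0.0219). For Casq1 the values were -0.06 ± 0.11 with DFO (adjusted p = 0.786) and -0.34 ± 0.11 without (adjusted p = 0.126). Casq1 passed for DFO in GFP cells and for the construct without DFO among genes above the median level (adjusted p = 0.0222 and 0.0294) and with trend and robust options (adjusted p = 0.0284 and 0.0366). The intervals of Casq1 leave room for a fall of up to 0.63 log2 units. Each gene was read by 1 probe set, and the suffix of the Casq2 set (1422529_s_at) marks probes that can match more than 1 transcript.

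Ryr1, the release channel, varied most between the arrays of a group. It read 546 and 310 units in PGC-1α plus DFO, 740 and 871 in GFP plus DFO, 1074 and 1197 in PGC-1α and 1691 and 1576 in GFP. It fell with DFO in PGC-1α cells by 1.46 ± 0.28 (2.76-fold, adjusted p = 0.0165), a call that ended without either PGC-1α array (-1.54 and -1.38, adjusted p = 0.0671 and 0.0764), with spike-in scaling (-1.02, adjusted p = 0.0564) and with only the groups compared (adjusted p = 0.0927). The change in GFP cells was -1.02 ± 0.28 and missed the threshold (adjusted p = 0.0516). It passed without either PGC-1α plus DFO array (adjusted p = 0.00902) and under 7 of the other alternatives (adjusted p from 0.00620 to 0.0455). Its other probe set, 1457347_at, kept the same order of groups, with 208 and 222 units in PGC-1α plus DFO, 255 and 265 in GFP plus DFO, 348 and 339 in PGC-1α and 504 and 377 in GFP. In the fit of every probe set it was called lower with DFO in GFP cells (-0.75 ± 0.16, adjusted p = 0.0426) and not in PGC-1α cells (-0.68 ± 0.16, adjusted p = 0.0515). The construct changed the leading set by -0.96 ± 0.28 with DFO (adjusted p = 0.0713) and by -0.53 ± 0.28 without (adjusted p = 0.289). With DFO it passed without the first PGC-1α plus DFO array (-1.37, adjusted p = 0.0130), among genes above the median level (adjusted p = 0.00953), with the floor at the 25th percentile (adjusted p = 0.0420) and with trend and robust options (adjusted p = 0.0111). It was -0.56 without the second PGC-1α plus DFO array, -0.62 with the mean of probe sets and -0.35 on the spike-in scale, and passed in none of these.

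Trdn, triadin, had the widest range. Its leading probe set (1426143_at) read 63.6 and 59.7 units in PGC-1α plus DFO, 408 and 380 in GFP plus DFO, 998 and 976 in PGC-1α and 1482 and 1557 in GFP. In PGC-1α plus DFO it had come down to the level of the array median. DFO lowered it 16.0-fold in PGC-1α cells (-4.00 ± 0.09, adjusted p = 6.42e-05) and 3.86-fold in GFP cells (-1.95 ± 0.09, adjusted p = 0.000300). The construct lowered it by 2.68 ± 0.09 with DFO (6.39-fold, adjusted p = 0.000409) and by 0.62 ± 0.09 without (1.54-fold, adjusted p = 0.0170).

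Trdn was read by 6 probe sets, which measure the same gene and are no replicates of each other. Which transcripts each of them reads was not analysed here. All 6 were called lower with DFO in both virus groups in the fit of every probe set, and 5 of the 6 under the construct with DFO. The 5 sets other than the leading one read 3.16 to 34.2 units in PGC-1α plus DFO, under the array median, so only their direction is given. The set that did not fall under the construct with DFO, 1426134_at, read 21.8 and 20.9 units in PGC-1α plus DFO, 17.6 and 16.5 in GFP plus DFO, 59.4 and 36.8 in PGC-1α and 57.9 and 53.8 in GFP, and was above the array median on none.

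The voltage-sensor subunits fell together. Cacna1s, the pore-forming subunit, read 68.5 and 56.6 units in PGC-1α plus DFO, 196 and 180 in GFP plus DFO, 380 and 440 in PGC-1α and 781 and 914 in GFP. Cacng1, the gamma subunit, read 155 and 162 units in PGC-1α plus DFO, 648 and 630 in GFP plus DFO, 1879 and 2012 in PGC-1α and 3021 and 2772 in GFP. Neither gene had overlapping groups. In PGC-1α plus DFO, Cacna1s had come down to the level of the array medians, 62.4 and 61.5 units. The sizes of its falls to that group are therefore set against dim values. DFO in PGC-1α cells lowered Cacng1 12.3-fold (-3.62 ± 0.09, adjusted p = 7.31e-05) and Cacna1s 6.57-fold (-2.72 ± 0.15, adjusted p = 0.000371). DFO in GFP cells lowered them by similar factors of 4.53 (-2.18 ± 0.09, adjusted p = 0.000263) for Cacng1 and 4.50 (-2.17 ± 0.15, adjusted p = 0.000799) for Cacna1s.

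Under the construct without DFO, Cacna1s had the largest fall of the 10 genes, 1.05 ± 0.15 or 2.07-fold (adjusted p = 0.0183), and Cacng1 fell by 0.57 ± 0.09 (adjusted p = 0.0221). With DFO the construct lowered Cacna1s by 1.59 ± 0.15 (adjusted p = 0.00327) and Cacng1 by 2.01 ± 0.09 (adjusted p = 0.000776).

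**Figure D3:**
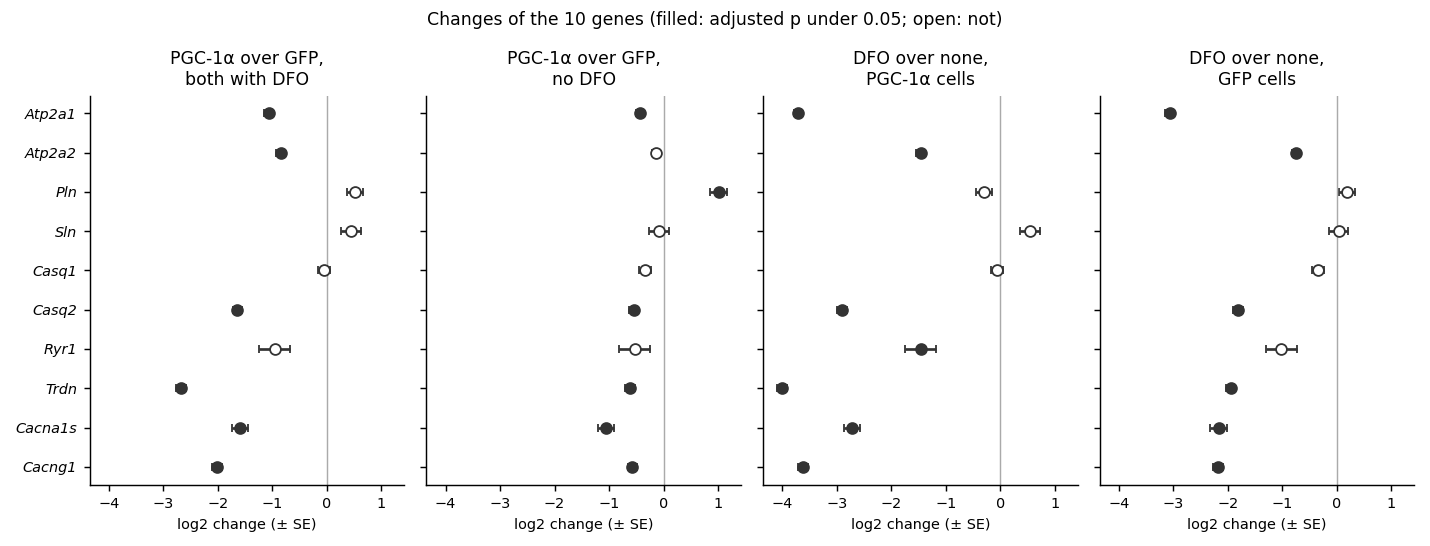
Log2 change ± SE of the 10 genes in 4 comparisons, filled where the adjusted p was under 0.05. The falls with DFO reach -4.00 in PGC-1α cells and -3.07 in GFP cells, and Pln without DFO (1.01) is the only filled point to the right of 0.

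Counted over the genes, DFO in PGC-1α cells lowered 7 of the 10 (Atp2a1, Atp2a2, Casq2, Ryr1, Trdn, Cacna1s and Cacng1), where 14.2% of all genes were called lower and 25.6% called in either direction. The median change was -2.09 for the 10 and 0.01 for all genes. In GFP cells DFO lowered 6 of the 10, the same genes without Ryr1, where 12.5% of all genes were called lower and 24.2% in either direction, and the medians were -1.42 and -0.02. Pln, Sln and Casq1 passed in neither. The calls of Atp2a1, Casq2, Trdn, Cacna1s and Cacng1 with DFO held in both virus groups under every alternative that gave them a value. Casq2 had none when probe sets with the suffix _s_at or _x_at were dropped, since its only probe set went with them.

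The construct with DFO lowered 6 of the 10 (Atp2a1, Atp2a2, Casq2, Trdn, Cacna1s and Cacng1), where 12% of all genes were called lower and 18.9% in either direction. Median changes were -1.02 for the 10 and -0.05 for all genes. The calls of Trdn, Cacna1s and Cacng1 held under every alternative run, and that of Casq2 under every one that gave it a value. Poly-A spike-ins are control RNAs added during preparation, and their mean log2 signal was 8.11 and 7.97 in PGC-1α plus DFO, 8.77 and 8.54 in GFP plus DFO, 8.61 and 8.35 in PGC-1α and 8.68 and 8.63 in GFP. With arrays scaled to them the median of all genes moved to 0.57 in this comparison, and Atp2a1 (-0.45, adjusted p = 0.121) and Atp2a2 (-0.24, adjusted p = 0.326) no longer passed. Relative to that median they changed by -1.02 and -0.81. Casq2 and Cacna1s were still called, at -1.02 and -0.98 on that scale.

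Without DFO the construct lowered 5 of the 10 (Atp2a1, Casq2, Trdn, Cacna1s and Cacng1) and raised Pln, where 4.77% of all genes were called lower, 4.96% higher and 9.73% in either direction. The medians were -0.48 for the 10 and -0.08 for all genes. These 6 calls were fragile. Without either GFP array, either PGC-1α array or either GFP plus DFO array limma called 0 of the 10, with 6 or 7 at an unadjusted p under 0.05, and the changes of these 6 genes kept their direction under every alternative. Without either PGC-1α plus DFO array all 6 were called.

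The fall with DFO was set against itself in the 2 virus groups by an interaction term, the DFO change in PGC-1α cells minus that in GFP cells, which uses disjoint arrays for each change. The term was -2.05 ± 0.12 for Trdn (adjusted p = 0.0235), -1.44 ± 0.13 for Cacng1 (adjusted p = 0.0322) and -1.09 ± 0.12 for Casq2 (adjusted p = 0.0482), so these 3 of the 10 fell further with DFO in PGC-1α cells, where 0.324% of all genes were called lower, 0.231% higher and 0.555% in either direction. Atp2a2 (-0.71 ± 0.11, adjusted p = 0.0724) and Atp2a1 (-0.64 ± 0.11, adjusted p = 0.0854) came next and did not pass. The same term compares the construct with and without DFO. It was below 0 for 8 of the 10 genes, with medians of -0.60 for the 10 and -0.01 for all genes. The share of all genes below 0 was not counted. With spike-in scaling the term by leading probe sets was 0.00 for Ryr1, -0.05 for Pln and -0.11 for Cacna1s, while Trdn stayed at -1.61. The median of all genes was then 0.43. In the fit of every probe set, the dimmer Pln sets had terms of -3.07 ± 0.24 (1450952_at, adjusted p = 0.0799) and -1.78 ± 0.44 (1423359_at, adjusted p = 0.234). Neither was called, nor was any other of the 24 probe sets in that fit.

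The 3 interaction calls of Trdn, Cacng1 and Casq2 also rested on single arrays. Leaving out any of the 8 arrays ended the calls of Casq2 and Cacng1, and leaving out any but the first PGC-1α plus DFO array ended that of Trdn. The adjusted p then lay between 0.0624 and 0.253 for Casq2, 0.0552 and 0.215 for Cacng1 and 0.0614 and 0.178 for Trdn. The values themselves moved little: over the arrays left out, Trdn stayed between -2.10 and -2.00.

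**Figure D4:**
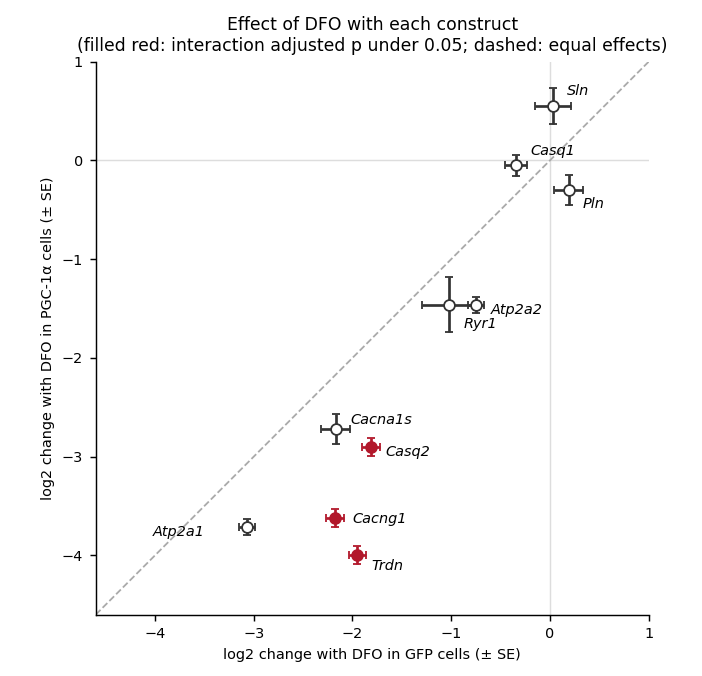
Log2 change with DFO in PGC-1α cells (vertical) against that in GFP cells (horizontal), both ± SE, for the 10 genes; the dashed line marks equal changes and filled red points an interaction adjusted p under 0.05. Trdn, Cacng1 and Casq2 lie furthest below the line, with differences of -2.05, -1.44 and -1.09.

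Most markers of the myotube state were lower with DFO, and few changed with the construct alone. Myog, the myogenic factor myogenin, read 63.1 and 71.1 units in PGC-1α plus DFO, 174 and 141 in GFP plus DFO, 5296 and 5245 in PGC-1α and 5223 and 5330 in GFP. Ckm, muscle creatine kinase, read 224 and 237 units in PGC-1α plus DFO, 531 and 541 in GFP plus DFO, 3651 and 3710 in PGC-1α and 5465 and 4969 in GFP. Of 11 measured myotube markers, 10 fell with DFO in PGC-1α cells and 9 in GFP cells, where 14.2% and 12.5% of all genes were called lower. With the construct 8 fell and 1 rose with DFO, beside 12% of all genes called lower and 6.93% higher. Without DFO 1 fell with the construct, beside 4.77% of all genes. The one that rose was Actn2, named here after its values were seen. It read 173 and 178 units in PGC-1α plus DFO against 92.0 and 75.7 in GFP plus DFO. Their summed intensity was 23373 to 24504 in PGC-1α plus DFO, 35238 to 35470 in GFP plus DFO, 72467 to 72496 in PGC-1α and 79626 to 82978 in GFP. All 11 read above the array median on all 8 arrays, but Myog in PGC-1α plus DFO was close to the medians of those arrays, 62.4 and 61.5 units. Des, desmin, was not called with DFO in either virus group (-0.24 ± 0.10 in PGC-1α cells, adjusted p = 0.155, and -0.27 ± 0.10 in GFP cells, adjusted p = 0.123). Acta1, skeletal actin, was not called in GFP cells (-0.26 ± 0.08, adjusted p = 0.0831). The part of these marker changes in the calcium genes' fall was not tested.

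Of the other markers, those of blood and endothelium summed to 200 to 224 units in PGC-1α plus DFO, 170 to 180 in GFP plus DFO, 120 to 150 in PGC-1α and 109 to 119 in GFP, with 0 of 4 above the array median on all arrays. Of these 4, limma called 1 higher with DFO in both virus groups, beside 11.4% of all genes in PGC-1α cells and 11.8% in GFP cells. It was Cd68, a macrophage marker named here after its values were seen. It read 73.9 and 86.4 units in PGC-1α plus DFO, 81.5 and 86.5 in GFP plus DFO, 36.2 and 46.5 in PGC-1α and 34.8 and 31.4 in GFP. Of the 4 epithelial markers limma called 0 in every comparison, with 0 or 1 at an unadjusted p under 0.05, and they summed to 122 to 130 units in PGC-1α plus DFO, 104 to 121 in GFP plus DFO, 161 to 201 in PGC-1α and 138 in GFP. Proliferating myoblast markers, 5 measured with 2 above the median on all arrays, summed to 675 to 759 units in PGC-1α plus DFO, 719 to 764 in GFP plus DFO, 708 to 709 in PGC-1α and 836 to 850 in GFP. Reserve cell markers, 5 measured, summed to 329 to 445 units in PGC-1α plus DFO, 654 to 659 in GFP plus DFO, 1190 to 1252 in PGC-1α and 1261 to 1344 in GFP. With DFO 3 of the 5 fell and 1 rose in both virus groups, where 25.6% (PGC-1α cells) and 24.2% (GFP cells) of all genes were called in either direction. The one that rose was Cd34, also named after its values were seen, at 139 and 103 units in PGC-1α plus DFO, 207 and 206 in GFP plus DFO, 56.7 and 57.6 in PGC-1α and 74.7 and 79.2 in GFP. Heart markers, 5 measured, summed to 1109 to 1181 units in PGC-1α plus DFO, 1206 to 1255 in GFP plus DFO, 8600 to 8754 in PGC-1α and 8775 in GFP. Nearly all of the heart sum came from Myl4 and, in PGC-1α, Tnni3, while Myh6 lay between 6.93 and 43.5 units on all arrays. The construct without DFO raised 1 of the 5, Tnni3, beside 4.96% of all genes called higher. Tnni3, picked after its values were seen, read 39.6 and 43.7 units in PGC-1α plus DFO, 16.7 and 33.4 in GFP plus DFO, 1703 and 1783 in PGC-1α and 167 and 169 in GFP. Myl4 read lower with the construct, at 6811 and 6919 units in PGC-1α against 8519 and 8556 in GFP. RNA quality can be read from the 5′ to 3′ signal ratio of beta-actin, which was 0.753 and 0.811 in PGC-1α plus DFO, 0.868 and 0.859 in GFP plus DFO, 0.919 and 0.897 in PGC-1α and 0.921 and 0.898 in GFP. The part of these markers and of this ratio in the falls was not tested.

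Beyond the 10 genes, 65 of 75 listed calcium genes were measured, in 7 lists. DFO lowered 23 (35.4%) and raised 8 (12.3%) of the 65 in PGC-1α cells, where 14.2% of all genes were called lower and 11.4% higher. In GFP cells it lowered 27 (41.5%) and raised 13 (20%), where 12.5% of all genes were called lower and 11.8% higher. The construct with DFO lowered 18 (27.7%) and raised 7 (10.8%), where 12% of all genes were called lower and 6.93% higher. Without DFO it lowered 9 (13.8%) and raised 4 (6.15%), where 4.77% of all genes were called lower and 4.96% higher. The shares raised by DFO in PGC-1α cells and by the construct without DFO were thus close to those of all genes. Median changes of the 65 were -0.29, -0.31, -0.29 and -0.14 in that order.

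**Figure D5:**
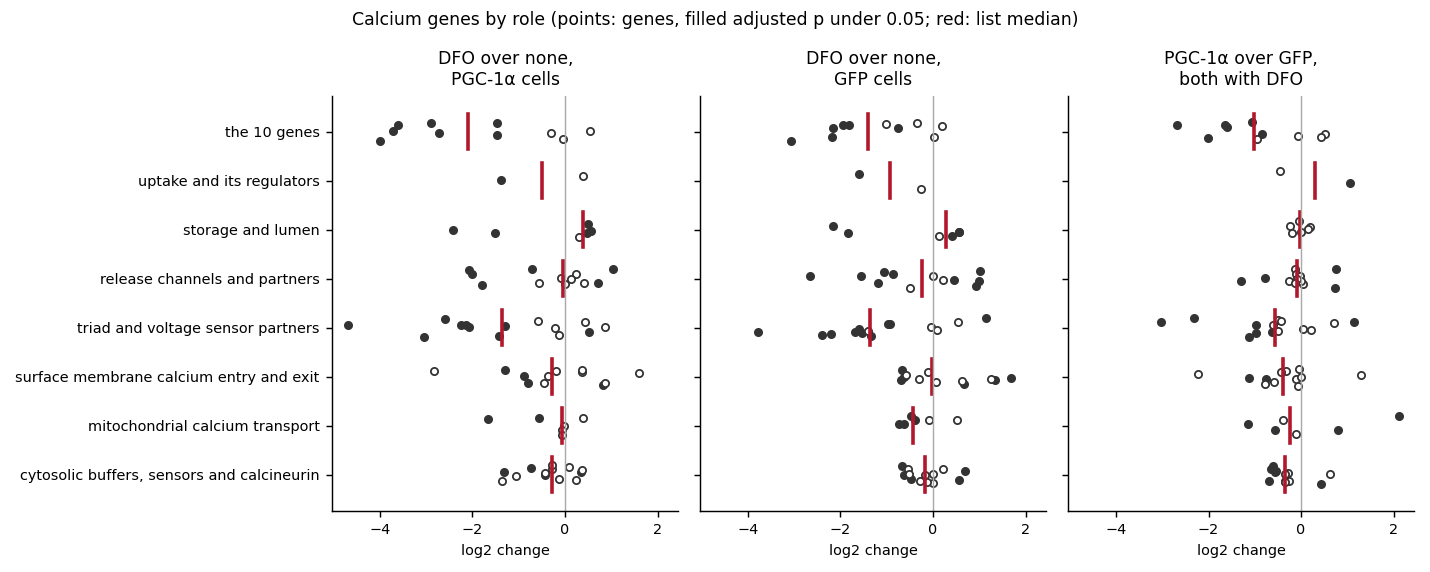
Log2 changes of the 10 genes and of the 7 lists of other calcium genes in 3 comparisons, with 1 point per gene, filled where the adjusted p was under 0.05, and a red bar at the list's median. The 10 genes and the triad list lie furthest left with DFO, with medians of -2.09 and -1.36 in PGC-1α cells.

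The triad and voltage-sensor partners came closest to the 10 genes. Of 14 measured, 8 fell and 1 rose with DFO in PGC-1α cells, 9 fell and 1 rose in GFP cells, and both medians were -1.36. Of all genes 14.2% and 12.5% were called lower there and 11.4% and 11.8% higher. Cav3, caveolin-3 of the surface membrane and T-tubules, read 15.9 and 7.72 units in PGC-1α plus DFO, 101 and 81.4 in GFP plus DFO, 293 and 279 in PGC-1α and 489 and 465 in GFP. Stac3, which couples the voltage sensor to Ryr1, read 28.4 and 40.2 units in PGC-1α plus DFO, 48.6 and 46.0 in GFP plus DFO, 192 and 215 in PGC-1α and 638 and 660 in GFP. Both were under the array median in PGC-1α plus DFO, and Stac3 was also under it in GFP plus DFO. Jph1, a junctophilin that holds the triad membranes together, fell with DFO by 3.05 ± 0.16 in PGC-1α cells (adjusted p = 0.000316) and by 1.33 ± 0.16 in GFP cells (adjusted p = 0.00407). With the mean of its probe sets these were -0.99 and -0.77, still called. Cacnb1, the beta subunit of the voltage sensor, fell in both, by 2.25 ± 0.12 (adjusted p = 0.000304) and 2.20 ± 0.12 (adjusted p = 0.000394), with an interaction of -0.05 ± 0.17 (adjusted p = 0.913).

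The gene that rose in this list with DFO in PGC-1α cells was Speg, a muscle kinase of the triad, named here after its values were seen. It read 623 and 538 units in PGC-1α plus DFO, 271 and 251 in GFP plus DFO, 392 and 417 in PGC-1α and 495 and 509 in GFP. DFO changed it by 0.52 ± 0.11 in PGC-1α cells (adjusted p = 0.0220) and by -0.94 ± 0.11 in GFP cells (adjusted p = 0.00339), and its interaction of 1.46 ± 0.15 (adjusted p = 0.0451) was the only one called among the 65. That call ended whichever of the 8 arrays was left out (adjusted p from 0.0552 to 0.219). The rise in PGC-1α cells ended without the first PGC-1α plus DFO array (adjusted p = 0.0582), either PGC-1α array (adjusted p = 0.111 and 0.0697) or either GFP plus DFO array (adjusted p = 0.0511).

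Of 12 measured release channels and partners, 4 fell and 2 rose with DFO in PGC-1α cells, and 5 fell and 4 rose in GFP cells. Of all genes 25.6% and 24.2% were called in either direction there. Tmem38a, the trimeric cation channel TRIC-A of the reticulum, fell with DFO by 1.80 ± 0.11 in PGC-1α cells (adjusted p = 0.000509) and by 2.66 ± 0.11 in GFP cells (adjusted p = 0.000271). Jsrp1, a junctional protein that binds the voltage sensor, fell by 2.02 ± 0.16 in PGC-1α cells (adjusted p = 0.00104) and by 1.55 ± 0.16 in GFP cells (adjusted p = 0.00264). S100a1, a calcium-binding protein that modulates the release channel, was higher with the construct, at 1986 and 1809 units in PGC-1α plus DFO against 1084 and 1190 in GFP plus DFO, and 1973 and 2031 in PGC-1α against 814 and 852 in GFP. Its rise was 1.27 ± 0.10 without DFO (adjusted p = 0.00396), a call that ended with only the groups compared (adjusted p = 0.0667).

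In the storage list 2 of 6 fell and 3 rose with DFO in both virus groups, where 25.6% (PGC-1α cells) and 24.2% (GFP cells) of all genes were called in either direction. The list is short, so its counts are not read as a result about it. The 2 that fell are muscle proteins of the reticulum. Hrc, a calcium-binding lumenal protein, fell by 2.42 ± 0.14 in PGC-1α cells (adjusted p = 0.000372) and changed by -2.17 ± 0.14 in GFP cells (adjusted p = 0.000598), and Srl, sarcalumenin, by 1.51 ± 0.09 (adjusted p = 0.000467) and 1.84 ± 0.09 (adjusted p = 0.000356). The general chaperones of the endoplasmic reticulum went the other way in both: Hspa5 (BiP) rose by 0.56 ± 0.09 in PGC-1α cells (adjusted p = 0.00855) and in GFP cells (adjusted p = 0.00907). In PGC-1α cells the rise of Hspa5 was no longer called without the first PGC-1α array (0.53, adjusted p = 0.0571) or with only the groups compared (adjusted p = 0.0651). In GFP cells it was not called without either GFP plus DFO array (0.55 and 0.56, adjusted p = 0.0672 and 0.0656) or with spike-in scaling (adjusted p = 0.117). The construct changed 0 of the 6 at an adjusted p under 0.05 by limma in either comparison, with 1 at an unadjusted p under 0.05 with DFO and 0 without.

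Among pump relatives and regulators 2 of 5 genes were measured. Mrln, myoregulin, another small inhibitor of SERCA, read 48.8 and 56.5 units in PGC-1α plus DFO, 81.2 and 64.5 in GFP plus DFO, 157 and 119 in PGC-1α and 198 and 239 in GFP. It fell with DFO by 1.38 ± 0.21 in PGC-1α cells (adjusted p = 0.00746) and by 1.59 ± 0.21 in GFP cells (adjusted p = 0.00504). Mrln was under the array median in PGC-1α plus DFO, so the size of the fall to that group is set against dim values. Atp2a3, the SERCA3 pump of non-muscle cells, was higher with the construct under DFO, at 327 and 304 units in PGC-1α plus DFO against 156 and 148 in GFP plus DFO (1.05 ± 0.13, adjusted p = 0.00628), a call that ended without either GFP plus DFO array (adjusted p = 0.0514 and 0.0539).

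Of 6 measured mitochondrial calcium transport genes, the construct with DFO lowered 2 and raised 2, where 18.9% of all genes were called in either direction. These few genes are not read as a result about the list. Letm1, a protein of the inner membrane with a proposed role in ion exchange, read 1297 and 1171 units in PGC-1α plus DFO against 281 and 288 in GFP plus DFO, and 1248 and 1347 in PGC-1α against 455 and 421 in GFP. It rose by 2.11 ± 0.10 with DFO (adjusted p = 0.000776) and by 1.57 ± 0.10 without (adjusted p = 0.00274). With the mean of its probe sets the rises were 0.66 with DFO (adjusted p = 0.0380) and 0.68 without, which was not called (adjusted p = 0.0557). The rise without DFO was also not called with only the groups compared (adjusted p = 0.0667). Mcu, the pore of the mitochondrial uniporter, fell with DFO in PGC-1α cells by 1.66 ± 0.16 (adjusted p = 0.00186).

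Of 12 measured surface entry and exit genes, 3 fell and 1 rose with DFO in PGC-1α cells and 3 fell and 3 rose in GFP cells, beside 25.6% and 24.2% of all genes called in either direction. Stim1, the reticulum sensor that opens store-operated channels, read 226 and 191 units in PGC-1α plus DFO, 213 and 220 in GFP plus DFO, 494 and 529 in PGC-1α and 337 and 330 in GFP, and fell with DFO in PGC-1α cells by 1.30 ± 0.11 (adjusted p = 0.00118). Of 13 measured cytosolic buffers, sensors and calcineurin subunits, 3 fell and 1 rose with DFO in PGC-1α cells, and 3 fell and 2 rose in GFP cells. These counts and those of the entry and exit genes rest on few genes and are not read as a result about either list. Pvalb, the fast-fibre calcium buffer parvalbumin, read 179 and 131 units in PGC-1α plus DFO, 97.6 and 101 in GFP plus DFO, 414 and 355 in PGC-1α and 161 and 156 in GFP. It fell with DFO in PGC-1α cells by 1.32 ± 0.17 (adjusted p = 0.00473), not called with only the groups compared (adjusted p = 0.0553).

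Likeness of pattern was measured as the root-mean-square difference of gene-centred log2 values over the 8 arrays, among 8857 genes above the median level. The genes nearest to Atp2a1 were Ckm (0.140), Myh4, a fast myosin heavy chain (0.169), and Mybpc1, a myosin-binding protein (0.178). Nearest to Casq2 were Nexn (0.099), Myom2 (0.110) and Fhl1 (0.110), which are sarcomere or muscle LIM genes. Those nearest to Pln were Osbpl1a (0.106), Akap7 (0.112) and Inpp5j (0.114), and those nearest to Sln were Pisd (0.076), Cyp8b1 (0.090) and Haus8 (0.092). Among the 10 themselves, Casq2 and Cacna1s were nearest to each other (0.197), as were Cacng1 and Trdn (0.250) and Atp2a2 and Ryr1 (0.252). The value is small for any pair of flat genes, so it ranks only the neighbours of 1 gene.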

How the data were processed

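The deposited table held linear intensities per probe set for the 8 arrays. The authors' probe summary, background correction and scaling are not given in the sources used here, and 968 to 1082 values per array were exactly 1. The intensities were log2-transformed as deposited, with no pseudocount and no filter. Of 45101 probe sets, 34945 had 1 symbol in the platform annotation, 932 several and 9160 none, and 64 were control probe sets. A linear model with a mean for each group was fitted over the 8 arrays in limma 3.58.1 (R 4.3.3), with 4 residual degrees of freedom and 1.30 from the prior. It had 5 contrasts, with two-sided p-values adjusted by Benjamini and Hochberg's method over 18193 genes, and was tested on simulated data. An exact permutation test of 2 arrays against 2 cannot go below p = 0.333, so p-values rest on limma's pooled spread, and the number of arrays limits their precision. Same-numbered arrays deviated together weakly at most (r from -0.11 to 0.22). The highest r was between PGC-1α plus DFO and GFP plus DFO. The replicate number was therefore not used as a block in the main fit, and a fit with it is among the alternatives.

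The members, the lists of other calcium genes and markers, and the alternatives were chosen with earlier results of these data known. Each list is described by its counts, and up to 4 of its called genes with the largest changes are named, with Ppargc1a, Myog and Ckm and the genes nearest in pattern to Atp2a1, Casq2, Pln and Sln. For scaling, the alternatives were spike-in controls, median centring and quantile normalization. For probe sets, they were a fit of each one separately, the average per gene, and dropping those with the suffix _s_at or _x_at. Dim values were floored at the 25th percentile or limited to genes over the median level. Other fits used the replicate block, the compared groups alone, trend and robust options, and each array left out. Promoters came from RefSeq. Plots used matplotlib 3.10.9 (Python 3.11.15).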

Additional observations from a re-analysis of the deposited data

Results flagged for a closer look

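The change of 3 genes with DFO differed between the virus groups by the interaction term, the change in PGC-1α cells minus that in GFP cells. It was -2.05 ± 0.12 (SE) for Trdn (limma adjusted p = 0.0235), where the change was -4.00 in PGC-1α cells and -1.95 in GFP cells. It was -1.44 ± 0.13 for Cacng1 (adjusted p = 0.0322), where the changes were -3.62 and -2.18, and -1.09 ± 0.12 for Casq2 (adjusted p = 0.0482), where they were -2.90 and -1.81. Both arrays of PGC-1α plus DFO were lower than both of GFP plus DFO for each of the 3. That also held for Atp2a1, Atp2a2, Ryr1 and Cacna1s, whose interaction was not called, so it does not bear on the term. The 3 calls ended with spike-in scaling, the mean of probe sets, every probe set and the replicate block, and with arrays left out as given above. Groups of 2 arrays were too small to look for a lone outlying sample.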

How the results depend on the processing

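Of the alternative values of the 10 genes, 782 kept their direction and side of the threshold, 101 lost a call, 32 gained one and 15 reversed. The causes were not tested. Where probe-set intensity lies near background, as for Sln, values have little order.

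Genes called for the construct without DFO numbered 1770, and 508 with spike-in scaling, 940 with the mean of probe sets, 3524 above the median level, 3746 with trend and robust options, 0 with only the groups compared (4531 at an unadjusted p under 0.05, limma) and 1060 with the replicate block. Of the 10 genes 6 were called, and 0 with spike-in scaling (3 unadjusted), 2 with every probe set, 0 with only the groups compared (7 unadjusted) and 3 with the block.

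For the interaction 101 genes were called, and 216 with quantile normalization, 3 with spike-in scaling, 4 with the mean of probe sets, 58 without _x_at and _s_at sets, 11 of 45037 probe sets, 1316 above the median level, 448 with the floor, 1467 with trend and robust options and 3 with the block. Of the 10 genes 3 were called, 5 above the median level, with the floor and with trend and robust options, and 0 with spike-in scaling, the mean of probe sets, every probe set and the block (4 or 5 unadjusted). Elsewhere, DFO in GFP cells called 4409 genes and 2230 with spike-in scaling. The construct with DFO called 3446, 2213 with the mean of probe sets and 861 with only the groups compared. DFO in PGC-1α cells called 4662, and 1942 with only the groups compared; with every probe set it called 7068 of 45037 probe sets, a lower share (15.7% against 25.6% of genes).

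With 1 array left out, the lone array of its group being assumed to vary like the other groups, genes called ranged from 304 to 2094 for the construct without DFO, 873 to 3431 with DFO, 2637 to 4130 for DFO in PGC-1α cells, 2069 to 4695 in GFP cells and 0 to 77 for the interaction (2089 unadjusted at the 0, without the first GFP plus DFO array). Members called ranged from 0 to 6, 6 to 8, 6 to 8, 6 to 7 and 0 to 1. Of 66 calls of the named other calcium genes, 40 ended without some array. As a number alone, the replicate block changed no call of the 10 genes with DFO.

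Spike-in scaling moved the median of all genes to 0.09 and the share of calls that were higher to 86.2% for the construct without DFO (51.0% as reported), to 0.57 and 94.0% with DFO (36.6%), to 0.45 and 80.9% for DFO in PGC-1α cells (44.6%) and to 0.43 and 66.7% for the interaction (41.6%).

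Directions reversed only among values not called, except those of Micu2 and Asph. With spike-in scaling the construct with DFO gave 0.56 for Casq1 and 0.05 for Micu2, the construct without DFO 0.04 for Atp2a2 and 0.10 for Sln, and DFO in PGC-1α cells 0.39 for Casq1 and 0.14 for Pln. Quantile normalization gave 0.07 and 0.01 for Casq1 in the construct with DFO and in DFO in PGC-1α cells. The mean of probe sets gave -0.03 for Pln and 0.53 for Asph with DFO in GFP cells, -0.14 for Sln under the construct with DFO and an interaction of 0.44 for Atp2a2. With 1 array left out, Casq1 with DFO in PGC-1α cells ranged from -0.17 to 0.07 (0.01 without PGC-1α plus DFO array 1). Sln ranged from -0.12 to 0.18 with DFO in GFP cells (-0.01 without GFP plus DFO array 2) and from -0.23 to 0.07 for the construct without DFO.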
